A study of Mus musculus with 6 samples.

Results

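The 10 genes described here code for ligands, receptors and direct effectors of the stem cell niche at the base of the small intestinal crypt, in the Wnt, Notch and EGF receptor pathways. They were chosen by gene symbol and not by a measured value, and all 10 were measured, each by 1 probe set, among the 19505 genes tested. The study compared crypts from CSN8ΔIEC mice with crypts from CSN8fl/fl mice, 3 samples of each, all on a C57bl/6 background, to ask whether loss of CSN8 lowers the output of antimicrobial peptides. The Cops8 gene encodes CSN8, a component of the COP9 signalosome, the complex that strips NEDD8 from cullins and so tunes a large class of ubiquitin ligases. By their names, CSN8ΔIEC mice lack CSN8 in intestinal epithelial cells and CSN8fl/fl mice carry the floxed gene; the sources used here do not name the driver of the deletion. In each genotype, the labels give replicates 1 and 2 as female, 16 weeks old, and replicate 3 as male, 10 weeks old. The crypts were released with EDTA after villi had been scraped away, and total RNA was hybridised to 1 Affymetrix array per sample. The labels call the samples biological replicates without saying that each came from a separate mouse. By its labelled age and sex replicate 3 came from another mouse than replicates 1 and 2, whose own spread may be technical, and every p-value reflects the spread among these samples alone.

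Wnt, Notch and EGF receptor signals are the short-range cues that keep stem cells dividing at the crypt base. Paneth cells, the granule-bearing secretory cells that lie between the stem cells, make Wnt3, Egf, Tgfa and the Notch ligand Dll4 in mice. Wnt ligands bind Frizzled receptors and stabilise β-catenin, which with TCF factors switches on target genes such as Ephb3, whereas Notch, once cleaved, acts with RBPJ on targets such as Hes1 and holds back secretory fate.

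The labels and the libraries were checked before the genes were compared. Cops8 (gene ID 108679) was at 7.68, 7.61 and 7.77 in CSN8ΔIEC replicates 1 to 3, against 8.26, 8.22 and 8.10 in CSN8fl/fl, on the log2 signal scale used throughout. Each CSN8ΔIEC value lay below each CSN8fl/fl value, but the difference of −0.50 ± 0.11 (SE) did not pass the threshold, an adjusted p of 0.05 over all genes (limma, adjusted p = 0.0865). The sources used here do not say whether the Cops8 probes fall in the excised sequence, and probes outside it would not check the genotype. The Y-linked gene Eif2s3y went against the labelled sex: it was at 9.87 and 9.61 in CSN8ΔIEC and at 9.95 and 10.1 in CSN8fl/fl in the libraries labelled female, and at 2.81 in CSN8ΔIEC and 4.06 in CSN8fl/fl in those labelled male. Labelled sex and age change together, and the term is kept below only as a split of replicate 3 from replicates 1 and 2. One library, CSN8fl/fl replicate 3, was less like the rest: its correlations with the other arrays over all probe sets were 0.976 to 0.986, and the highest for any pair of arrays was 0.993. The tissue label was set against marker lists: all 21 Paneth cell markers lay above the range of olfactory receptor genes, which stand for genes not used in crypts (95th percentile of 1091 genes, 5.58), while 8 of 12 endothelial markers, among them Pecam1, Cdh5 and Kdr, lay within it. Markers of other cells were also measured above that range: 11 of 11 for T cells and intraepithelial lymphocytes, 8 of 15 for stromal and muscle cells, 4 of 10 for myeloid cells and 3 of 5 for B cells and plasma cells. Of all genes tested, 66.9% lay above that range, so these counts alone do not show which cells were present. Of the endothelial markers Lyve1, a hyaluronan receptor of lymphatic vessels, rose, with 8.15, 8.48 and 8.17 in CSN8ΔIEC, against 7.14, 7.30 and 7.08 in CSN8fl/fl (limma, adjusted p = 0.00996; 0.0620 without replicate 3 of either genotype). The list as a whole did not: 5 of the 12 differences were above 0 and 7 below, with a median of −0.084. Its mean log2 signal was 5.38 to 5.43 in CSN8ΔIEC, against 5.35 to 5.41 in CSN8fl/fl.

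None of the 10 niche genes passed the threshold for a genotype difference, where 1.08% of all genes tested did. At an unadjusted p under 0.05 there was 1, Wnt3, where 15% of all genes were past it. Wnt3 was also the 1 gene of the 10 whose 3 CSN8ΔIEC values did not overlap the 3 CSN8fl/fl values, against 22.4% of all genes; the other 9 overlapped. The differences of those 9 ran from −0.10 to 0.33, and their 95% intervals lay between −0.47 and 0.93, so that no interval reached beyond 1.90-fold in either direction. The median over the 10 was 0.007, beside −0.011 over all genes.

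**Figure D1:**
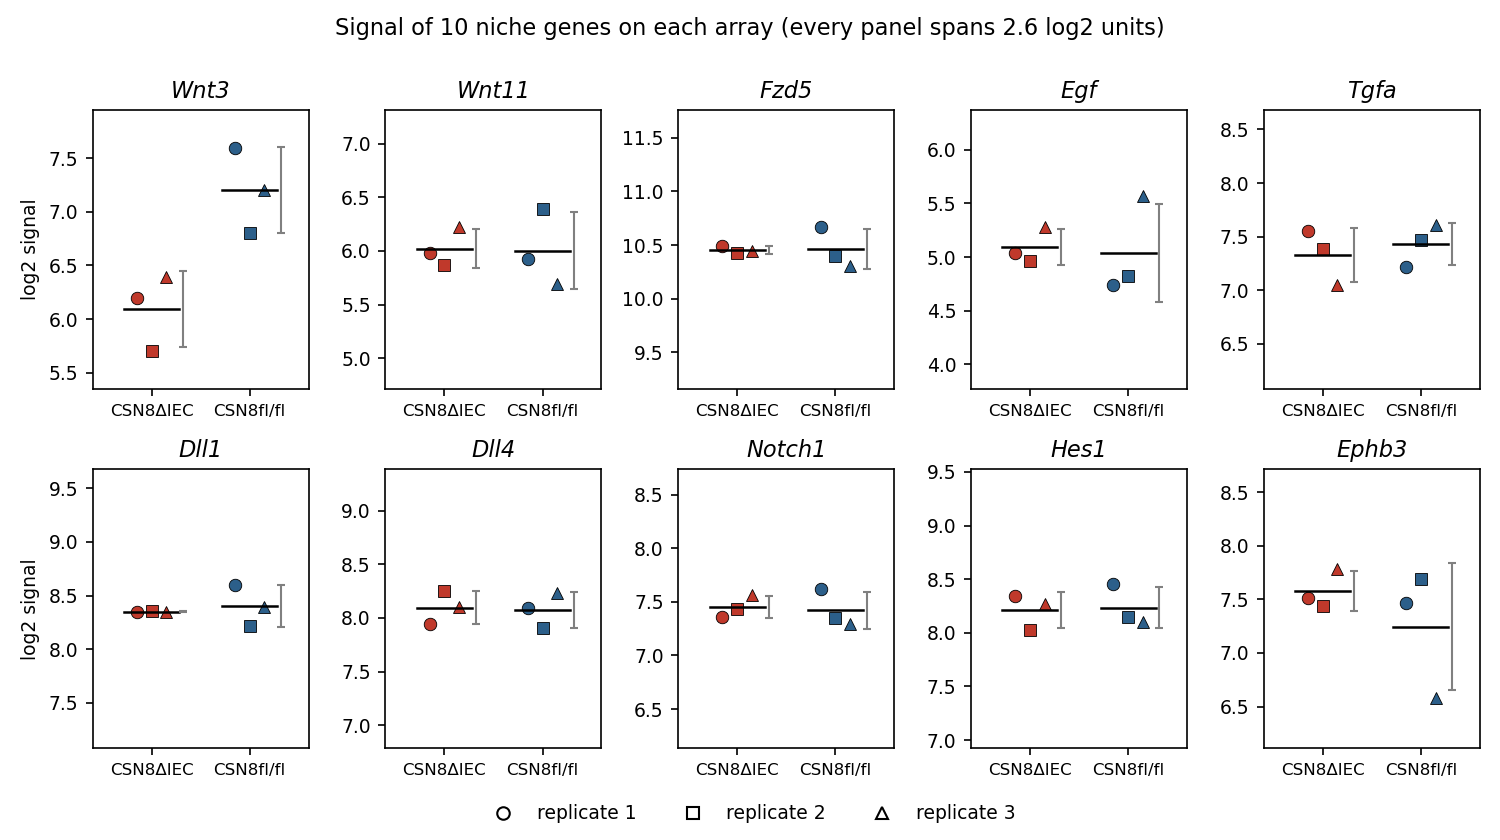
Log2 signal of the 10 niche genes on each of the 6 arrays, with CSN8ΔIEC left and CSN8fl/fl right in each panel; symbols mark replicates, black lines group means and grey bars 1 SD (n = 3). Wnt3 separates the genotypes, with 5.70 to 6.39 in CSN8ΔIEC and 6.80 to 7.60 in CSN8fl/fl, and in the other panels the groups overlap.

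Wnt3 and Ephb3 are shown with the sequence before their start sites, the first because it is the member whose groups did not overlap and the other because it had the next largest difference and is a textbook target of β-catenin and TCF. The sequences are RefSeq windows of 300 bases, 250 before the start site and 50 from it onward, on the GRCm38.p6 build. Wnt3 is read from chr11:103773925-103774224 and Ephb3 from chr16:21204545-21204844, both on the plus strand. Capitals mark every match, on either strand, to CTTTGA or CTTTGT (core letters bound by TCF and LEF factors), TGGGAA (core letters bound by RBPJ) or CANNTG (the E-box bound by basic helix-loop-helix factors).
Wnt3: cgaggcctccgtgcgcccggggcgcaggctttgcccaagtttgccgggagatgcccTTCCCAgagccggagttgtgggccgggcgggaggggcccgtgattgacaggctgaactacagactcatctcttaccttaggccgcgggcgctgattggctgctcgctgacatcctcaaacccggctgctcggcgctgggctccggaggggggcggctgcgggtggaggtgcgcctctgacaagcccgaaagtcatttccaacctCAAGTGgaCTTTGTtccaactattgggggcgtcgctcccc
Ephb3: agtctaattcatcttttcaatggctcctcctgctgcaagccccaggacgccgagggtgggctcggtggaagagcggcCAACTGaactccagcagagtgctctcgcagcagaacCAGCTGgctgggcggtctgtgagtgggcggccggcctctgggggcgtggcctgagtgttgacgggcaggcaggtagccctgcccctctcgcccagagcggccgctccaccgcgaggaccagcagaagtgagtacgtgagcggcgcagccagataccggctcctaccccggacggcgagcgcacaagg
The Wnt3 window held 1 CTTTGT, 19 bases after the start site, 1 TGGGAA on the opposite strand with its first base 194 before it, and 1 CANNTG, 11 after it. The Ephb3 window held 2 CANNTG, 173 and 137 bases before the start site, and 0 of the other motifs. Of 32851 windows of the same length in the table, 16% held CTTTGA, 18.7% CTTTGT, 25.6% TGGGAA and 72.3% CANNTG. A match is a description of letters and not a site, and no other motif was searched. Windows were found for 9 of the 10 genes.

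Wnt3 is the canonical Wnt ligand of the mouse Paneth cell. Its signal (gene ID 22415) was 6.19, 5.70 and 6.39 in CSN8ΔIEC replicates 1 to 3, against 7.60, 6.80 and 7.21 in CSN8fl/fl replicates 1 to 3. All 3 CSN8ΔIEC libraries were below all 3 CSN8fl/fl libraries. The means were 6.09 ± 0.36 in CSN8ΔIEC and 7.20 ± 0.40 in CSN8fl/fl (SD, n = 3 each), a difference of −1.11 ± 0.23 (SE; 95% interval −1.64 to −0.58), or 2.15-fold lower with an interval of 1.49 to 3.11. It did not pass over all genes (limma, adjusted p = 0.0686), and 1.02% of all genes had a larger difference in either direction. Between libraries labelled female the difference was −1.25, and between the 2 labelled male −0.82. Without CSN8fl/fl replicate 3 it was −1.10 (limma, adjusted p = 0.151), and over all alternatives it lay between −1.31 and −0.91. The call depended on the model: with a variance that could follow the signal and resist outliers Wnt3 passed (limma, adjusted p = 0.0467), and over the alternatives the adjusted p ran from 0.0261 to 0.212.

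Paneth cell markers were low in the same libraries as Wnt3. Of 21 measured, 11 fell and 0 rose, all 21 differences were below 0, and in 19 the 3 CSN8ΔIEC values lay below the 3 CSN8fl/fl values, where 0.702% of all genes fell and 11.7% had their CSN8ΔIEC values below. The list was chosen with these results known. Its mean log2 signal was 10.62, 10.22 and 11.17 in CSN8ΔIEC replicates 1 to 3, against 12.12, 12.13 and 12.21 in CSN8fl/fl, and none of its members lay within the olfactory receptor range. Within CSN8ΔIEC, replicate 2 was lowest and replicate 3 highest both in Wnt3 and in the Paneth cell markers, but within CSN8fl/fl replicate 1 was highest in Wnt3 and lowest in the markers. Wnt3 minus the mean of the markers on the same array was −4.42, −4.52 and −4.78 in CSN8ΔIEC, against −4.52, −5.33 and −5.00 in CSN8fl/fl, and these ranges meet. On this measure the genotype difference was 0.38 for Wnt3, 1.54 for Egf, 1.38 for Tgfa and 1.51 for Dll4. Each genotype difference on this measure holds the difference of the markers themselves, and the Egf signal lay within the olfactory receptor range. For Egf, Tgfa and Dll4 all CSN8ΔIEC values lay above all CSN8fl/fl values. The subtracted marker mean itself did not overlap between genotypes, so a gene without a genotype difference can separate in this way. The share of all genes that do so is not given here, and the separation is not read as a trait of these ligands. In bulk crypts, fewer cells of a type and less RNA per cell cannot be told apart, and the part of the marker difference in the Wnt3 result was not tested.

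The other Wnt ligand, Wnt11, best known for signals that do not use β-catenin, was at 5.98, 5.87 and 6.22 in CSN8ΔIEC, against 5.92, 6.39 and 5.69 in CSN8fl/fl. The highest and the lowest of the 6 values were both CSN8fl/fl libraries, replicates 2 and 3. The difference was 0.021 ± 0.19 (95% interval −0.41 to 0.45; limma, adjusted p = 0.968), and without CSN8fl/fl replicate 3 it was −0.14.

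Fzd5, a Frizzled receptor that Paneth cells need to mature, had one of the narrowest intervals. It was at 10.49, 10.43 and 10.44 in CSN8ΔIEC, against 10.67, 10.40 and 10.31 in CSN8fl/fl. The CSN8ΔIEC values fell inside the CSN8fl/fl range, and the difference was −0.0073 ± 0.13 (95% interval −0.30 to 0.29; limma, adjusted p = 0.984).

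Ephb3, a receptor tyrosine kinase that holds Paneth cells at the crypt base, had a wide CSN8fl/fl spread that came mostly from 1 library. It was at 7.51, 7.43 and 7.78 in CSN8ΔIEC, against 7.47, 7.69 and 6.58 in CSN8fl/fl. CSN8fl/fl replicate 3 was low and the other 5 libraries lay between 7.43 and 7.78. The SD was 0.18 in CSN8ΔIEC and 0.59 in CSN8fl/fl (n = 3 each), and 1.8% of all genes had a larger SD in CSN8fl/fl. The difference of 0.33 ± 0.26 (95% interval −0.26 to 0.93; limma, adjusted p = 0.591) was −0.0040 without that library. By labelled sex and age, it was −0.11 between libraries labelled female and 1.21 between those labelled male. This interaction of 1.31 ± 0.25 did not pass over all genes (limma, adjusted p = 0.388), as none of the 10 did, where 0% of all genes passed. At an unadjusted p under 0.05 there were 2, Ephb3 and Tgfa, where 10.1% of all genes were past it.

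Proliferation genes were lowest in the same library. Their mean over 13 genes was 9.98, 9.98 and 9.99 in CSN8ΔIEC replicates 1 to 3, against 9.77, 9.68 and 9.01 in CSN8fl/fl. None of the 13 passed the threshold and all 13 differences were above 0, with a median of 0.45. In 11 of the 13 the CSN8ΔIEC values lay above all CSN8fl/fl values, replicates 1 and 2 included, beside 10.7% of all genes. Intestinal stem cell markers averaged 8.28, 8.24 and 8.44 in CSN8ΔIEC, against 8.38, 8.28 and 7.88 in CSN8fl/fl, again lowest in CSN8fl/fl replicate 3. Of the 12 measured, 9 differences were above 0 and 3 below, from −1.39 to 0.73. Past the threshold 1 fell and 0 rose, beside 0.702% and 0.374% of all genes. The part of these lists in the Ephb3 values was not tested.

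**Figure D2:**
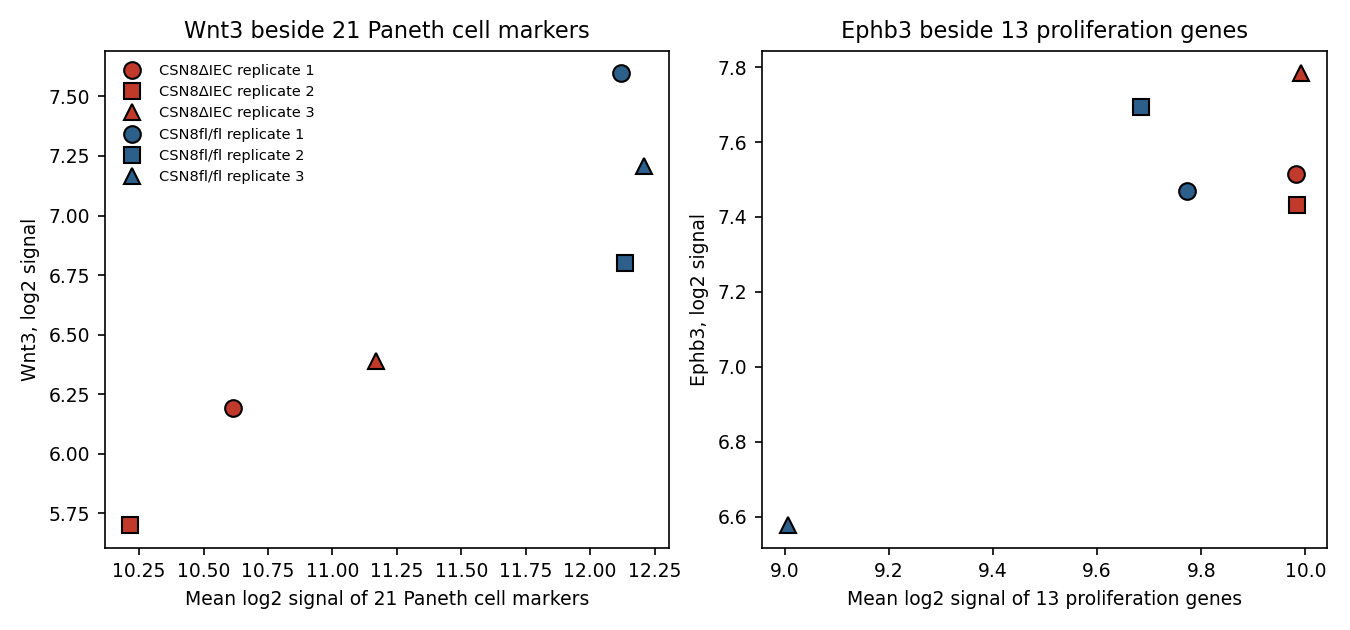
Left, Wnt3 log2 signal against the mean log2 signal of 21 Paneth cell markers; right, Ephb3 against the mean of 13 proliferation genes; 1 point per array, red for CSN8ΔIEC and blue for CSN8fl/fl. CSN8ΔIEC arrays are at 10.22 to 11.17 and CSN8fl/fl arrays at 12.12 to 12.21 on the left axis of markers, and CSN8fl/fl replicate 3 lies alone at an Ephb3 signal of 6.58 on the right.

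The ligands of the EGF receptor, the tyrosine kinase that drives growth of crypt stem cells, did not separate the genotypes. Egf was at 5.04, 4.96 and 5.28 in CSN8ΔIEC, against 4.74, 4.82 and 5.57 in CSN8fl/fl, and its mean over the arrays lay within the range of olfactory receptor genes. Its highest and lowest values were CSN8fl/fl libraries, and the difference was 0.053 ± 0.22 (95% interval −0.44 to 0.54; limma, adjusted p = 0.929). Without CSN8fl/fl replicate 3, the highest library, the Egf difference was 0.32 (limma, adjusted p = 0.374). Tgfa, a membrane-anchored EGF receptor ligand, was at 7.55, 7.38 and 7.05 in CSN8ΔIEC, against 7.22, 7.47 and 7.60 in CSN8fl/fl. Replicate 3 was the lowest library of CSN8ΔIEC and the highest of CSN8fl/fl, and the difference was −0.10 ± 0.16 (95% interval −0.47 to 0.27; limma, adjusted p = 0.806).

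The Notch ligands Dll1 and Dll4, which secretory cells present to neighbouring stem and progenitor cells, lay close together in all libraries. Dll1 was at 8.35, 8.36 and 8.34 in CSN8ΔIEC, against 8.60, 8.22 and 8.39 in CSN8fl/fl. The 3 CSN8ΔIEC libraries were nearly equal, and 99.71% of all genes had a larger SD there; the difference was −0.055 ± 0.13 (95% interval −0.35 to 0.24; limma, adjusted p = 0.874). Dll4 was at 7.94, 8.25 and 8.10 in CSN8ΔIEC, against 8.09, 7.90 and 8.23 in CSN8fl/fl, with fully mixed groups and a difference of 0.021 ± 0.14 (95% interval −0.29 to 0.33; limma, adjusted p = 0.957).

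Notch1, a receptor of crypt stem cells, was at 7.35, 7.43 and 7.56 in CSN8ΔIEC, against 7.62, 7.35 and 7.29 in CSN8fl/fl. CSN8fl/fl held both the highest and the lowest library, and the difference was 0.030 ± 0.13 (95% interval −0.27 to 0.33; limma, adjusted p = 0.934). Hes1, the Notch-induced repressor that restrains the secretory factor Atoh1, was at 8.35, 8.02 and 8.27 in CSN8ΔIEC, against 8.46, 8.15 and 8.10 in CSN8fl/fl. The groups overlapped, with a difference of −0.023 ± 0.14 (95% interval −0.35 to 0.31; limma, adjusted p = 0.955). For the 8 genes other than Wnt3 and Ephb3, no interval reached beyond 1.46-fold in either direction. That bound is the one of Egf, whose signal lay within the olfactory receptor range, so it bounds the signal and not Egf RNA.

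**Figure D3:**
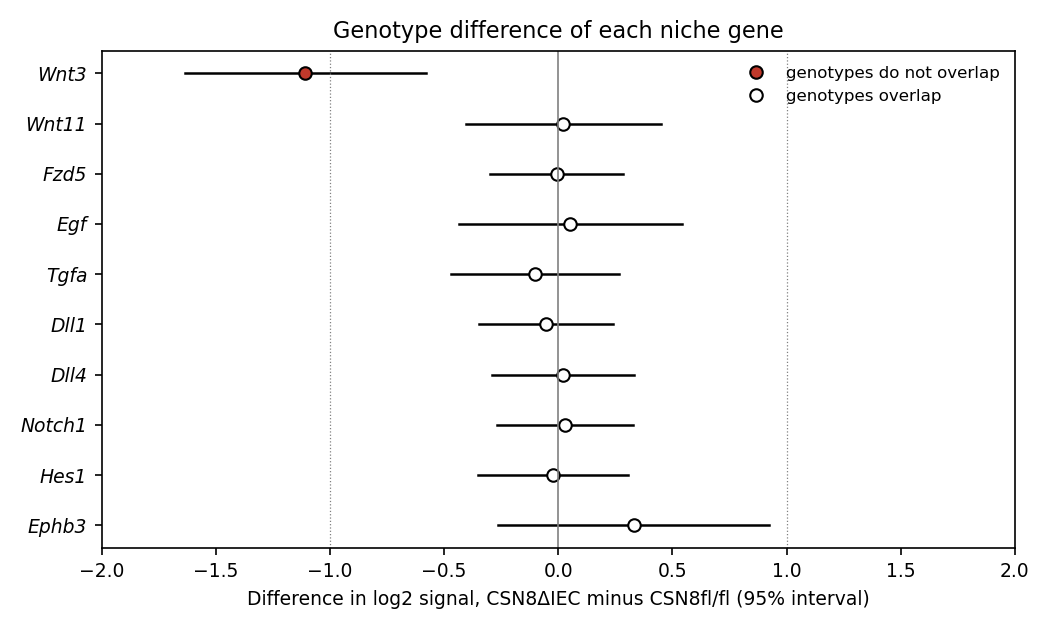
Difference in log2 signal, CSN8ΔIEC minus CSN8fl/fl, of each niche gene with its 95% interval from the fit over all genes (n = 3 per genotype); the filled point marks non-overlapping groups and dotted lines mark a difference of 1. Wnt3 lies at −1.11, and the other 9 points lie between −0.10 and 0.33 with intervals that include 0.

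The patterns over the 6 arrays were compared with those of 9482 or 9483 genes of at least median mean signal. Wnt3 was most like Traf6 (Pearson r = 0.991), a ubiquitin ligase of innate immune signalling, and Pyroxd2 (r = 0.984). For Wnt3, 121 genes had an r above 0.9. A high r does not mean a difference of like size. The genotype difference was −0.12 for Traf6 (limma, adjusted p = 0.655) and −1.21 for Pyroxd2 (limma, adjusted p = 0.0194). Ephb3 was most like Neil3 (r = 0.995), a DNA glycosylase of dividing cells, and Fads2 (r = 0.994), a fatty acid desaturase, and 526 genes had an r above 0.9. For the other 8 members the 2 most alike genes had an r of 0.958 to 0.992: Mtfmt and Myg1 for Wnt11, Eola1 and Mrpl44 for Fzd5, Entpd1 and Hps3 for Egf, Cyp4f37 and Tmf1 for Tgfa, Sprtn and Krtap17-1 for Dll1, Siglec15 and Pex19 for Dll4, Ptp4a3 and Brpf1 for Notch1, and Gorasp1 and Entpd6 for Hes1. With 6 arrays such values are met by many genes, and they describe likeness only.

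The other genes of the 3 pathways and of the Eph family were counted from lists. Of 171 measured, 1 fell and 1 rose, beside 0.702% and 0.374% of all genes. In 22.2% the genotypes did not overlap, beside 22.4% of all genes, and the median difference was −0.025. Of the 171, 27 lay within the olfactory receptor range.

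Prox1, a homeobox factor known as a β-catenin target in colorectal tumours and as a marker of enteroendocrine and tuft cells, was the gene that fell. It was at 5.84, 6.04 and 6.19 in CSN8ΔIEC, against 6.93, 7.46 and 7.08 in CSN8fl/fl, and the groups did not overlap. It was 2.19-fold lower (difference −1.13 ± 0.16; limma, adjusted p = 0.0184), and did not pass without CSN8ΔIEC replicate 1 or 2 (limma, adjusted p = 0.0971 and 0.0567). Tuft cell markers were low in the same libraries: 4 of 11 fell and 0 rose, beside 0.702% and 0.374% of all genes. None of them lay within the olfactory receptor range, and their mean log2 signal ran from 6.43 to 6.53 in CSN8ΔIEC, against 7.54 to 8.92 in CSN8fl/fl. Of 11 enteroendocrine markers 2 rose and 1 fell, beside 0.374% and 0.702% of all genes, with list means of 8.52 to 8.61 in CSN8ΔIEC, against 8.46 to 8.55 in CSN8fl/fl. The part of these cells in the Prox1 result was not tested.

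Epha4, a receptor for ephrins of both classes, was the gene that rose. It was at 7.42, 7.21 and 7.43 in CSN8ΔIEC, against 6.41, 6.65 and 6.13 in CSN8fl/fl, without overlap. It rose 1.94-fold (difference 0.96 ± 0.15; limma, adjusted p = 0.0263), but leaving out any 1 library other than CSN8fl/fl replicate 2 ended the call (limma, adjusted p = 0.0502 to 0.129). No other Eph receptor or ephrin of the 15 measured passed, and the list had a median of −0.0091.

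Among the 23 genes of the β-catenin complex and its targets, Prox1 was the one past the threshold, and the median was −0.026. Their list mean was 8.62, 8.54 and 8.63 in CSN8ΔIEC, against 8.59, 8.58 and 8.50 in CSN8fl/fl. In 4 of them the CSN8ΔIEC values were all above and in 4 all below, beside 10.7% and 11.7% of all genes. These 8 genes, except Prox1, were named after their values were seen. The 4 above were Cd44 (difference 1.06; limma, adjusted p = 0.0604), an adhesion receptor of the crypt base, Myc (0.76; limma, adjusted p = 0.195), a driver of cell growth, Ascl2 (0.73; limma, adjusted p = 0.0983), a stem cell transcription factor, and Tnfrsf19 (0.55; limma, adjusted p = 0.136), a stem cell receptor. The 4 below were Prox1, Bcl9l (−0.33; limma, adjusted p = 0.249), a β-catenin cofactor, and the kinases Gsk3a (−0.28; limma, adjusted p = 0.334) and Gsk3b (−0.20; limma, adjusted p = 0.450), which mark β-catenin for degradation. None of the 4 above passed in the fit used throughout. Cd44 passed with dim genes filtered out (limma, adjusted p = 0.0442), with the trend and robust variance model (limma, adjusted p = 0.0362) and without CSN8ΔIEC replicate 2 (limma, adjusted p = 0.0205). Ascl2 passed without CSN8fl/fl replicate 1 (limma, adjusted p = 0.0362). Without any other 1 library neither passed (limma, adjusted p = 0.0957 to 0.239 for Cd44 and 0.163 to 0.321 for Ascl2). Without CSN8fl/fl replicate 3 the differences were 0.96 for Cd44, 0.51 for Myc, 0.67 for Ascl2 and 0.40 for Tnfrsf19. Ascl2 and Tnfrsf19 were also among the 12 stem cell markers, of which 3 had a difference below 0 and 1 fell past the threshold.

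No other gene of the Wnt lists passed. The 17 other Wnt ligands had a median of −0.078 and differences from −0.29 to 0.097; of these 5 lay within the olfactory receptor range, and the 2 smallest p-values belonged to Wnt7a (−0.29; limma, adjusted p = 0.415) and Wnt8b (−0.29; limma, adjusted p = 0.415). The 17 other receptors and co-receptors had a median of −0.024, with Fzd1 at −0.69 (limma, adjusted p = 0.0847) and Fzd8, within the olfactory receptor range, at −0.66 (limma, adjusted p = 0.188). The 17 R-spondins and secreted Wnt regulators had a median of 0.0036 and 0 genes without overlap.

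No gene of the Notch lists passed either. The 8 other ligands and receptors had a median of 0.11, the 24 processing enzymes and modifiers −0.099 and the 17 transcription factors and targets −0.084. Rfng, a fringe glycosyltransferase that modifies Notch, had the smallest p, with a difference of −0.55 ± 0.13 (limma, adjusted p = 0.0931). It was at 8.04, 7.94 and 7.98 in CSN8ΔIEC, against 8.33, 8.62 and 8.66 in CSN8fl/fl, and the groups did not overlap. Spdef and Atoh1, transcription factors of the secretory lineage that Notch holds back, had differences of −0.40 and −0.30 (limma, adjusted p = 0.197 and 0.307), also without overlap. Among 12 markers of goblet cells, 5 fell and none rose, beside 0.702% and 0.374% of all genes. Their list means were 11.08 to 11.26 in CSN8ΔIEC, against 11.62 to 11.69 in CSN8fl/fl, and their part was not tested.

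In the EGF receptor lists 0 genes passed. The 4 receptors had a median of −0.0041, and Egfr itself was at 8.03, 8.12 and 8.12 in CSN8ΔIEC, against 8.20, 8.05 and 8.27 in CSN8fl/fl. The 8 other ligands had a median of −0.12, with Btc at 0.35 and Ereg at 0.41 (limma, adjusted p = 0.211 and 0.342). The 21 feedback regulators and targets had a median of 0.11. Dusp4, a phosphatase of the MAP kinases, was at 7.74, 7.59 and 7.23 in CSN8ΔIEC, against 6.70, 6.85 and 6.80 in CSN8fl/fl, without overlap (difference 0.74 ± 0.15; limma, adjusted p = 0.0604). Errfi1, an inhibitor of the EGF receptor, was at 9.53, 9.33 and 9.46 in CSN8ΔIEC, against 8.68, 8.34 and 9.0 in CSN8fl/fl, also without overlap (difference 0.77 ± 0.17; limma, adjusted p = 0.0825). Dusp4 passed without CSN8ΔIEC replicate 3 (limma, adjusted p = 0.0474) and Errfi1 without CSN8fl/fl replicate 3 (limma, adjusted p = 0.0388). Without any other 1 library neither passed (limma, adjusted p = 0.109 to 0.241 for Dusp4 and 0.119 to 0.284 for Errfi1).

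**Figure D4:**
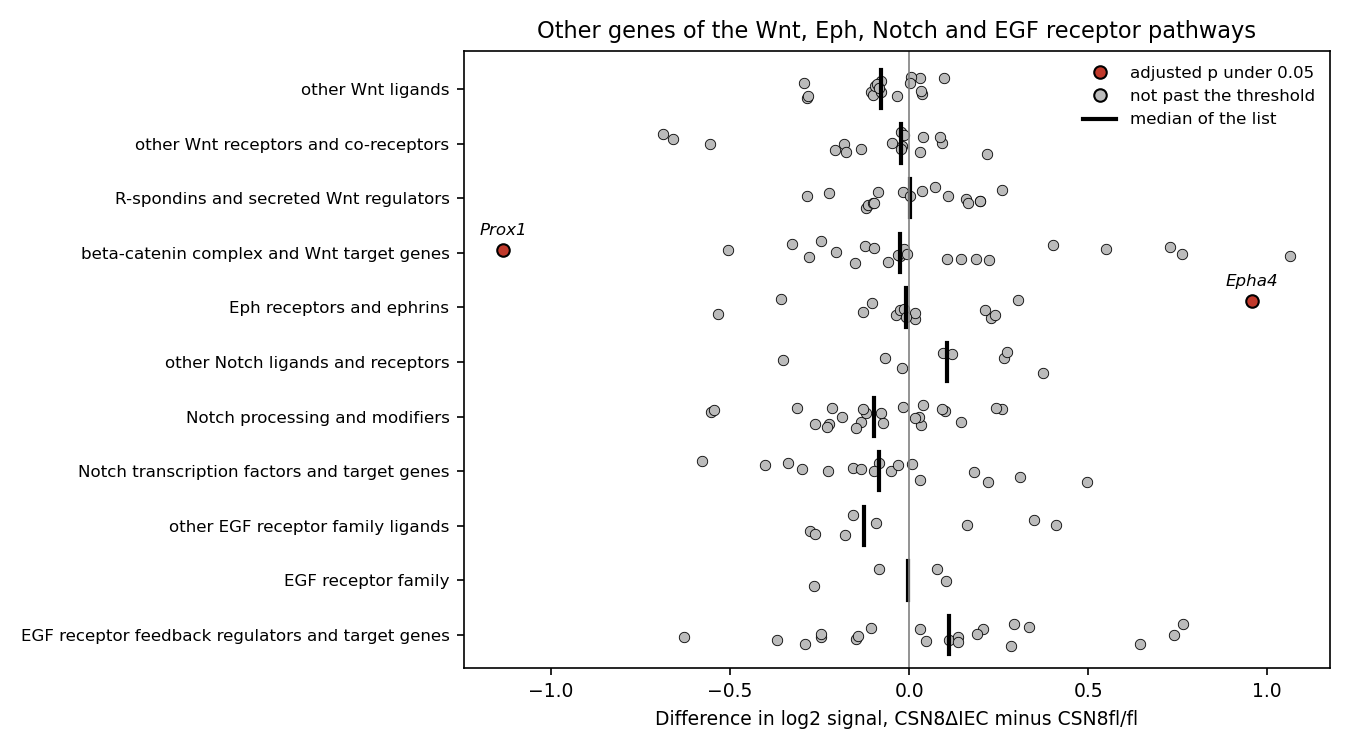
Difference in log2 signal, CSN8ΔIEC minus CSN8fl/fl, of 171 other pathway genes, 1 point per gene and list, with the median of each list as a bar. Prox1 at −1.13 and Epha4 at 0.96 are the genes past the threshold, and the list medians lie between −0.12 and 0.11.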

How the data were processed

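Total RNA from crypts of 6 samples was measured on 1 array each. The authors deposited log2 signals per probe set, for which the submitters' processing notes name RMA, a method that corrects background, quantile-normalises arrays and sums probes up to probe sets, and Partek 6.6. The sources used here give neither settings nor a genome build for these steps. Of 22206 probe sets, 19572 had 1 gene symbol in the platform annotation, all with a gene ID found in the reference gene table, and 2634 are unnamed here. For 55 genes with several probe sets the one with the highest mean was used, which left 19505 genes.

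Genotypes were compared as CSN8ΔIEC minus CSN8fl/fl in limma 3.58.1 under R 4.3.3, by lmFit followed by eBayes (8.85 moderated degrees of freedom), two-sided, with Benjamini-Hochberg adjustment over all genes and a threshold of 0.05. The fit was tested on simulated data, where it missed some of the changed genes and called some unchanged ones. Errors after ± are SE for differences and SD for means. Arrays have no read depth, and their number limits the precision. The niche genes, the pathway and marker lists and the tests were chosen with earlier results of these data known. Genes of a list named in the text are those past the threshold, otherwise those of smallest p, unless stated. Of the lists' genes without a named probe set, none was analysed here. Start-site windows are RefSeq sequences on GRCm38.p6. Replicate numbers were not treated as pairs. Deviations from the group means correlated at 0.12, −0.024 and 0.038 for numbers 1 to 3, against −0.15 to 0.096 for unlike numbers. With so few samples these values cannot exclude pairing, and labelled age and sex match by number. Alternatives were a filter on dim genes, the mean of probe sets, another variance model, array weights, 2 rescalings, labelled sex and age as a covariate, a replicate block and leaving out each library; leaving out replicate 3 of both genotypes was added after seeing the data.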

Additional observations from a re-analysis of the deposited data

Results flagged for a closer look

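The genotype difference changed sign between the labelled sex and age groups in 8 of the 10 niche genes, and of these 8 Egf was the one whose libraries labelled female did not overlap between genotypes. The shares of all genes with such a sign change or such a separation are not given here, so neither is read as a trait of the niche genes. In libraries labelled female, both CSN8ΔIEC values (5.04 and 4.96) lay above both CSN8fl/fl values (4.74 and 4.82), and between the libraries labelled male CSN8ΔIEC was at 5.28 and CSN8fl/fl at 5.57. The interaction of −0.51 ± 0.23 did not pass over all genes (limma, adjusted p = 0.506), and its unadjusted p of 0.0624 was larger than those of Tgfa (0.0398) and Ephb3 (0.00149). The Egf signal lay within the range of olfactory receptor genes.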

How the results depend on the processing

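The number of niche genes past the threshold was 0 with all libraries and 0 under the alternatives, except where Wnt3 passed. It was 1, Wnt3, with the trend and robust variance model (limma, adjusted p = 0.0467) and 1, Wnt3, with the replicate block (limma, adjusted p = 0.0261). Whether replicate numbers pair the samples is not known, and the block left 202 genes past the threshold in all, against 210. Wnt3 was lower in CSN8ΔIEC under all 14 alternatives that gave it a value. Because its groups did not overlap, leaving out or weighting libraries could not change that sign. The mean of probe sets, the other variance model, the covariate and the block left its difference as it was by construction. The filter on dim genes, which keeps genes of at least median mean signal, left out Wnt3, Wnt11, Egf and Prox1. The 2 pathway genes past the threshold were 5 with the trend and robust variance model (Prox1, Epha4, Cd44, Errfi1 and Dusp4), 5 with array weights (Prox1, Epha4, Fzd1, Errfi1 and Dusp4), 3 with dim genes filtered out (Epha4, Cd44 and Dusp4), 1 with the replicate block (Prox1), 0 without replicate 3 of either genotype, and 0 to 2 without any 1 library. The count over all genes was 41 to 228 without any 1 library and 97 without replicate 3 of either genotype. Cops8 passed only with dim genes filtered out (limma, adjusted p = 0.0436).

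The differences of the other 9 niche genes, which did not pass under any alternative run, changed sign in places. With array weights Wnt11 was at −0.050 and Notch1 at −0.020; with array medians subtracted Fzd5 was at 0.025 and Hes1 at 0.0089, and with quantile normalisation repeated Fzd5 was at 0.0011. Without replicate 3 of either genotype Wnt11 was at −0.24, Tgfa at 0.12, Notch1 at −0.090 and Ephb3 at −0.11. Without any 1 library the differences ran from −0.14 to 0.22 for Wnt11, −0.083 to 0.098 for Fzd5, −0.098 to 0.32 for Egf, −0.21 to 0.036 for Tgfa, −0.15 to 0.044 for Dll1, −0.065 to 0.10 for Dll4, −0.034 to 0.13 for Notch1, −0.090 to 0.087 for Hes1 and −0.0040 to 0.55 for Ephb3. The cause was not tested. The interaction count stayed at 0 under both alternatives. With 3 arrays a genotype, intervals reach 1.46-fold for 8 of the genes and 1.90-fold for Ephb3. The 1.46-fold is the bound of Egf, whose signal lay within the olfactory receptor range.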
